A study of Mus musculus with 9 samples.

Results

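The genes described here are 10 members of the fibroblast growth factor (FGF) family, taken by gene symbol from the 22013 entries of a gene expression table. They are 7 ligands (Fgf1, Fgf2, Fgf7, Fgf9, Fgf10, Fgf18 and Fgf21) and 3 receptors (Fgfr1, Fgfr2 and Fgfr3). Of the 10, 7 passed the filter for testing, a TPM of 1 or more in 3 or more libraries, which 12553 genes of the table passed. The table holds RNA sequencing of 9 libraries of mouse primary cells from the spinal meninges, the membranes around the spinal cord, with the cell type given as fibroblast and the tissue as spinal cord. There were 3 libraries from each of 3 segments, named C, T and L, and the labels do not spell the letters out. The series title concerns fibrotic scarring after injury to the cord at different levels, but every library is labelled as fresh cells with no special treatment, and strain, age, genotype and pooling of animals are not stated in the labels. Nothing says that the libraries of a segment came from separate animals or cultures, so the p-values measure only how these samples spread, and that spread may be technical.

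FGFs are secreted proteins that bind receptor tyrosine kinases on the cell surface, with heparan sulfate chains as co-factors. A bound receptor phosphorylates adaptor proteins, which activate the Ras and MAP kinase cascade, and the cascade induces transcription factors as well as feedback inhibitors such as the Sprouty proteins and the dual-specificity phosphatases. Fibroblasts are a known source of several FGFs, and FGF2 is a well-known mitogen for fibroblasts.

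The libraries held between 15652558 and 25204310 estimated counts. Replicates of a segment differed by more than counting noise, the chi-square divided by its degrees of freedom being 19.6 between T replicates 1 and 2, the pair farthest apart, and 3.66 to 11.5 for the other pairs. All 9 genes of the fibroblast marker list passed the low-value filter, with a summed level of 9610 to 9909 TPM in C, 8438 to 8889 in T and 9683 to 9766 in L. TPM is a transcript level scaled for length and library size, so it can be compared between genes. Within that list Pdgfra, a fibroblast receptor, was low at 3.54 ± 0.513 TPM in segment C, 23.3 ± 1.38 in segment T and 7.09 ± 0.731 in segment L (SD, n = 3 each). Thy1, a surface glycoprotein of fibroblasts, ran the other way, at 871 ± 13.98, 156 ± 11.7 and 232 ± 12.7 TPM (SD, n = 3 each), and was 6.03-fold lower in T and 4.08-fold lower in L than in C (edgeR adjusted p = 7.3e-12 and 1.05e-10). The fibroblast list thus had 4 genes higher and 4 lower in T against C, 4 higher and 3 lower in L against C, and 4 higher and 2 lower in L against T. The summed Schwann cell markers (249 to 251 TPM in C, 92.0 to 95.9 in T, 139 to 148 in L), neuronal markers (250.2 to 260, 43.7 to 47.2 and 61.5 to 64.3) and mural cell markers (8027 to 8165, 4582 to 5154 and 6714 to 7380) also differed between segments, and so did endothelial markers (105 to 117, 48.8 to 49.5 and 59.2 to 63.4). Acta2 made up most of the mural sum, at 7784 ± 63.4 TPM in segment C, 4743 ± 288 in segment T and 6851 ± 333 in segment L (SD, n = 3 each). Of 7 tested mural markers, T had 1 higher and 5 lower than C, and L had 1 higher and 4 lower. The higher one was Anpep, 5.08-fold in T and 6.97-fold in L (edgeR adjusted p = 9.03e-10 and 2.35e-10). The summed macrophage markers were at 48.6 to 51.7 TPM in C, 49.4 to 52.2 in T and 21.5 to 23.6 in L, and of 7 tested, 7 were lower in L than in C and 6 lower in L than in T. Markers of the meningeal layers differed too. Of 7 tested pia markers, 6 were lower and 1 higher than in C both in T and in L, Spp1 being 7.40-fold lower in T and 9.98-fold lower in L (edgeR adjusted p = 9.38e-10 and 5.56e-10), while their summed level was 8341 to 8660 TPM in C, 7290 to 8583 in T and 7403 to 8422 in L. Of 7 tested arachnoid barrier markers, T had 5 higher and 1 lower than C and L had 6 higher and 1 lower, and the tight junction gene Cldn11 was at 1.10 ± 0.316 TPM in segment C, 111 ± 4.37 in segment T and 37.8 ± 2.99 in segment L (SD, n = 3 each). The lower one was Aldh1a2 in both, at 217 ± 8.51, 27.0 ± 1.85 and 32.2 ± 1.26 TPM (SD, n = 3 each). Its counts were 8.75-fold lower in T and 7.26-fold lower in L than in C (edgeR adjusted p = 6.48e-13 and 3.1e-12). The summed level of the arachnoid barrier list was 259 to 277 TPM in C, 282 to 297 in T and 212 to 225 in L. Aldh1a2 made up most of that sum in C, so the sum hides changes in opposite directions. Of 8 dura markers, T had 6 higher and 2 lower than C and L had 4 higher and 3 lower. Of 3 tested epithelial markers, 3 were higher in T and 2 in L than in C, with a sum over the list of 25.5 to 29.0 TPM in C, 69.7 to 78.5 in T and 31.1 to 41.0 in L. Cdh1 and Krt15 of this list passed the low-value filter only through their T and L libraries, as did Cdh1 and Dpp4 of the arachnoid barrier list. On the macrophage list, Cx3cr1 and Mrc1 passed it only through their C and T libraries. The marker counts stand beside shares of all tested genes, 25.8% higher and 25.2% lower for T against C. These shares were 24.4% and 25.2% for L against C, and 7.88% and 8.21% for L against T. Some listed markers were under 1 TPM on average in every segment for neurons (Rbfox3, Snap25, Syt1, Nefl), endothelium (Pecam1, Cldn5, Tie1, Vwf) and epithelium (Epcam, Krt8, Krt14, Krt5), and so was Ptprc of the macrophage list. The same held for Kcnj8 and Abcc9 of the mural list and for Mog of the oligodendrocyte lineage list. Other markers of the same lists were well above that level. The neuronal marker Stmn2 was at 162 ± 3.95 TPM in segment C, 13.5 ± 0.520 in segment T and 22.2 ± 1.98 in segment L. In the same order, endothelial Cdh5 was at 83.6 ± 5.23, 43.1 ± 0.464 and 54.1 ± 2.05 TPM. Epithelial Krt19 was at 26.3 ± 1.39, 61.8 ± 4.66 and 33.3 ± 4.46 TPM (SD, n = 3 each). The part of other cell types in the results below was not tested, and in bulk samples fewer cells of a type and less RNA per cell cannot be told apart.

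Receptor transcripts outnumbered ligand transcripts in every segment, and Fgfr1 was the highest of the 10 genes throughout. In C the order of mean levels was Fgfr1, Fgfr2, Fgf2, Fgf7, Fgfr3, Fgf10, Fgf18, Fgf1, Fgf9 and Fgf21, and of the neighbours only Fgf7 with Fgfr3 and Fgf1 with Fgf9 overlapped in their replicate ranges. In T the 3 receptors led, followed by Fgf7 and Fgf2, whose ranges overlapped, then Fgf18 and Fgf10, which did not overlap. In L the receptors led again, but the ranges of Fgfr3, Fgf2 and Fgf7 overlapped from each neighbour to the next. Fgf18 therefore stood below Fgf10 in C and above it in T and in L. Fgf1, Fgf9 and Fgf21 came last in each segment, and in T and L their ranges overlapped.

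**Figure D1:**
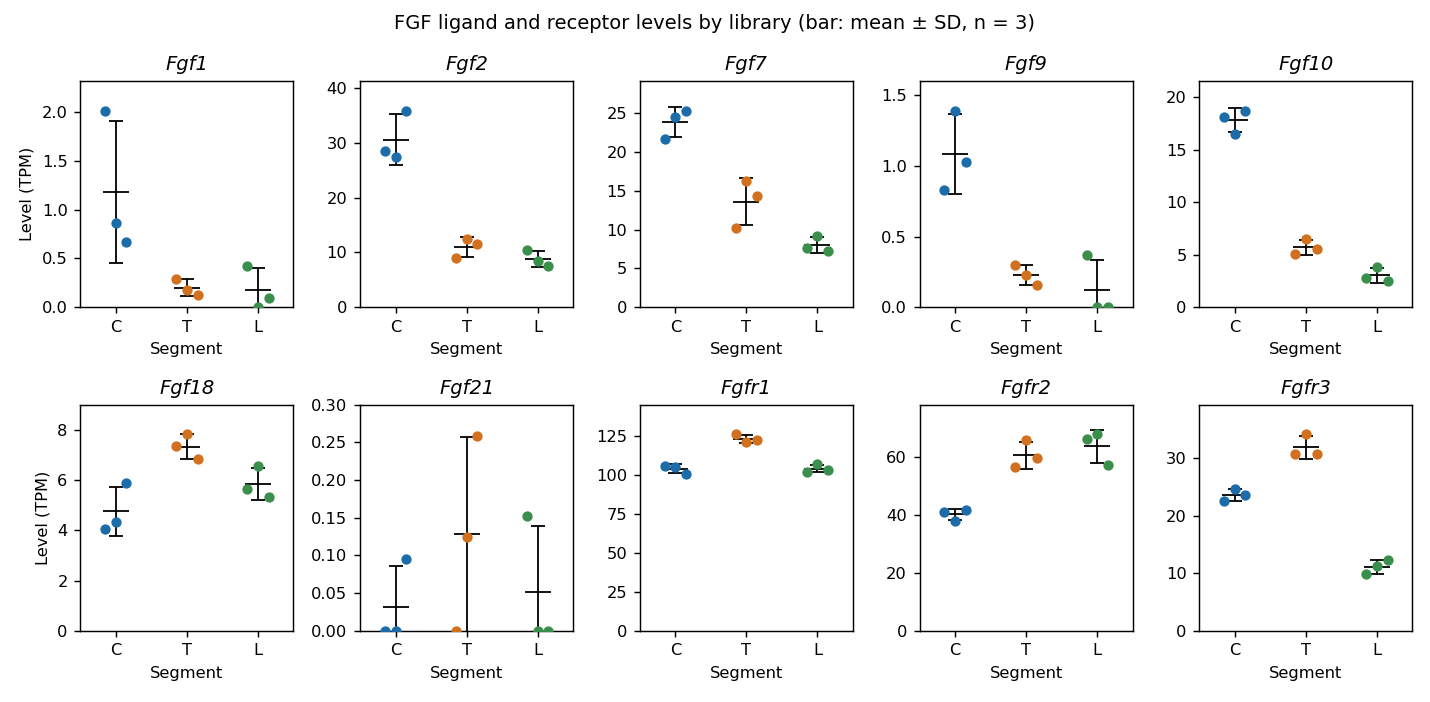
Level in TPM (vertical axis, from 0) of each of the 10 genes in the 9 libraries, by segment, with the mean and SD of 3 libraries; bars that would pass below 0 end at the axis. Fgf2, Fgf7 and Fgf10 are highest in the 3 C libraries, Fgfr2 is lowest there, and Fgfr3 is highest in T and lowest in L.

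The clearest ligand pattern was shared by Fgf2, Fgf7 and Fgf10, which were higher in every C library than in any T or L library. Fgf2 encodes basic FGF, while Fgf7 (keratinocyte growth factor) and Fgf10 are ligands that mesenchymal cells are known to make and that act on epithelial forms of FGFR2. Among ligands tested, 3 of 4 were lower in T than in C, where 25.2% of all 12553 tested genes were lower, and 3 of 4 were lower in L than in C, where 25.2% of all tested genes were also lower. The summed Schwann cell, neuronal and endothelial markers were highest in C as well, but lowest in T rather than L. So were the oligodendrocyte lineage markers (88.4 to 92.0 TPM in C, 63.0 to 64.8 in T and 71.2 to 76.0 in L). Of 6 tested, 5 were lower than in C in both T and L, and Pdgfra was higher. Among the lower ones, Olig2 passed the low-value filter only through its C libraries, and Olig1 only through its C and T libraries. Olig1 of that list had the order of Fgf10, 3.95-fold lower in T and 9.68-fold lower in L than in C (edgeR adjusted p = 5.29e-06 and 2.77e-07). Between L and T the list had 3 markers higher and 2 lower. It shares Cspg4 with the mural list, Sox10 with the Schwann cell list and Pdgfra with the fibroblast list. Cspg4 made up most of its sum, at 59.4 ± 1.46 TPM in segment C, 35.7 ± 1.96 in segment T and 54.6 ± 2.25 in segment L (SD, n = 3 each). The sum is therefore not separate from those of the other lists. Of the pia markers 6 of 7 were lower in T and in L than in C. Of the arachnoid barrier markers 5 and 6 of 7 were higher, among them Cdh1 and Dpp4 with the filter limit given above. The summed macrophage markers were lowest in L. The part of any of these in the ligand differences was not tested.

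Fgf10 had the largest difference of the 7 tested genes between C and L. Its level was 18.2, 16.5 and 18.8 TPM in C replicates 1 to 3, 5.10, 6.50 and 5.56 in the T libraries and 2.77, 3.87 and 2.53 in the L libraries. The 3 segments did not overlap, with C highest and L lowest. By edgeR's quasi-likelihood test on counts, Fgf10 was 3.39-fold lower in T than in C (log2 change -1.76, SE 0.12, edgeR adjusted p = 4.27e-08) and 6.32-fold lower in L than in C (-2.66, SE 0.13, edgeR adjusted p = 2.29e-09). L was also below T, by 1.86-fold (log2 change -0.90, SE 0.14, edgeR adjusted p = 0.000562).

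Fgf7 followed the same order. It measured 21.7, 24.5 and 25.4 TPM in the C libraries, 10.2, 16.2 and 14.3 in the T libraries and 7.64, 9.21 and 7.24 in the L libraries. The segments did not overlap, although T replicate 1 lay near the L libraries. Fgf7 was 1.92-fold lower in T than in C (log2 change -0.94, SE 0.13, edgeR adjusted p = 4.38e-05), 3.23-fold lower in L than in C (-1.69, SE 0.14, edgeR adjusted p = 3.5e-07) and 1.68-fold lower in L than in T (-0.75, SE 0.15, edgeR adjusted p = 0.00263).

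Fgf2 was the highest ligand in C, at 28.5, 27.4 and 36.0 TPM, against 8.96, 12.4 and 11.5 in T and 10.4, 8.46 and 7.50 in L. C lay above both other segments, and T and L overlapped. The gene was 3.32-fold lower in T than in C (log2 change -1.73, SE 0.12, edgeR adjusted p = 4.64e-08) and 4.09-fold lower in L than in C (-2.03, SE 0.12, edgeR adjusted p = 1.57e-08). Between T and L the change of -0.30 (95% interval -0.57 to -0.03) did not pass the test (edgeR adjusted p = 0.141), but it did without T replicate 1 (-0.40, edgeR adjusted p = 0.024). Fgf2 shares part of its locus with Nudt6 on the opposite strand, its estimated counts were fractional in 9 of 9 libraries, and counting by strand is not stated, so its value is uncertain. Nudt6 itself was low, at 3.72 ± 0.224 TPM in segment C, 5.76 ± 1.13 in segment T and 4.09 ± 1.46 in segment L (SD, n = 3 each), and was not highest in C.

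The 250 bases before the annotated start of these 3 ligand genes, and of Fgf18, whose levels ran the other way between C and T, are shown so that their promoters can be read side by side. They are from RefSeq on GRCm38.p6, 5′ to 3′ along the gene, at chr3:37348403-37348652 (plus strand) for Fgf2, chr2:126034408-126034657 (plus strand) for Fgf7, chr13:118714449-118714698 (plus strand) for Fgf10 and chr11:33147401-33147650 (minus strand) for Fgf18. Capitals mark matches, on either strand, to the motifs searched, which were the TATA box TATAAA, the promoter motif CCAAT, the GC box letters GGGCGG, the AP-1 motif TGANTCA and the TEAD motif GGAATG.
Fgf2: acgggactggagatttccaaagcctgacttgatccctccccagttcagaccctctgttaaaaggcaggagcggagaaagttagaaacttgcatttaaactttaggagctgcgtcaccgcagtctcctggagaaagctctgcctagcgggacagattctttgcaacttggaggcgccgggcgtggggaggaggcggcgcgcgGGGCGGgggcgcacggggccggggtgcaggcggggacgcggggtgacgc
Fgf7: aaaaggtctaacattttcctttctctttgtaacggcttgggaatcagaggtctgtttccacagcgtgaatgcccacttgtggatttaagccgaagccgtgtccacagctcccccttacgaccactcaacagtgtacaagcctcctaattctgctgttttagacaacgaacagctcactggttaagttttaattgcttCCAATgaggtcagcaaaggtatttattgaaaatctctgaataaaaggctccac
Fgf10: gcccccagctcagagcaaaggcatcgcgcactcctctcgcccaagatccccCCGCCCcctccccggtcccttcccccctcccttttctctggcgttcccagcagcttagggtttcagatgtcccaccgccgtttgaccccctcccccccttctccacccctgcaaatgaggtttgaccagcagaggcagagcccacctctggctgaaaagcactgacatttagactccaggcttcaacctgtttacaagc
Fgf18: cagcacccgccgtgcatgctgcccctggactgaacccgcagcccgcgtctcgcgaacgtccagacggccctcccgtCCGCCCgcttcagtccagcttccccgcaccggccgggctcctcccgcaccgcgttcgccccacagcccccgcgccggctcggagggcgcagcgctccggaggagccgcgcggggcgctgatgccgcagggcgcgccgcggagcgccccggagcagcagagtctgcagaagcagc

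The 4 windows differed in base composition. GC content was 62.4% for Fgf2, 43.6% for Fgf7, 61.2% for Fgf10 and 77.2% for Fgf18, against a median of 52.4% over 32851 promoter windows of the same length. The number of CG dinucleotides was 20 for Fgf2, 6 for Fgf7, 8 for Fgf10 and 37 for Fgf18, against a median of 6. Each window held a single match and no matches overlapped. Fgf7 had the CCAAT motif, from position -53 to -49 counted back from the start, a motif found in 33.9% of all windows. The other windows had a GC box, found in 32.7% of all windows, from -49 to -44 in Fgf2, from -199 to -194 in Fgf10 and from -174 to -169 in Fgf18. The letters of the TATA, AP-1 and TEAD motifs were in 12.4%, 6.75% and 12.6% of all windows and in none of these 4. Windows were found for 8 of the 10 genes, Fgf1 and Fgfr1 being the others.

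Fgf18, a ligand known for roles in cartilage and bone, was the one tested ligand that was higher in T than in C. It measured 4.06, 4.33 and 5.86 TPM in the C libraries, 7.36, 7.82 and 6.81 in the T libraries and 5.64, 6.54 and 5.30 in the L libraries. T lay above both other segments, and C and L overlapped. Its counts were low, 37 to 65 per library in C and 55 to 67 in T. The difference of T from C was 1.41-fold (log2 change 0.50, SE 0.19, edgeR adjusted p = 0.0383), close to the threshold, and it did not pass in a DESeq2 test (adjusted p = 0.0898), with the replicate block (edgeR adjusted p = 0.0589), without the low-value filter (edgeR adjusted p = 0.0557) or without any 1 of C replicates 1 and 2 and T replicates 1, 2 and 3 (edgeR adjusted p = 0.0527 to 0.106). L differed from C by 0.20 (95% interval -0.22 to 0.62, edgeR adjusted p = 0.411) and from T by -0.30 (edgeR adjusted p = 0.354), and the test over all segments did not call the gene (edgeR adjusted p = 0.0874).

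Fgf1, Fgf9 and Fgf21 did not pass the low-value filter. Fgf1 encodes acidic FGF, Fgf9 a ligand best known from lung and gonad development, and Fgf21 an endocrine ligand made mainly by liver. Fgf1 had 28, 27 and 28 counts in the C libraries, 6, 6 and 4 in the T libraries and 8, 0 and 3 in the L libraries. Fgf9 had 14, 21 and 21 counts in the C libraries, 4, 3 and 2 in the T libraries and 4, 0 and 0 in the L libraries. Both were thus higher in each C library than in any T or L library. On the TPM scale Fgf1 was at 1.18 ± 0.730 in segment C, 0.198 ± 0.0850 in segment T and 0.172 ± 0.224 in segment L, and Fgf9 was at 1.08 ± 0.285, 0.226 ± 0.0730 and 0.122 ± 0.211 (SD, n = 3 each). No test or fold is given for either gene. Fgf21 had 0, 0 and 1 counts in the C libraries, 0, 1 and 2 in the T libraries and 1, 0 and 0 in the L libraries, so no fold is given.

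Among the receptors, Fgfr2 was lower in C than in T and L, Fgfr3 was lowest in L, and Fgfr1 varied least by fold. FGFR1 is the main receptor of mesenchymal cells, FGFR2 is spliced into epithelial and mesenchymal forms, and FGFR3 is known in cartilage and in astrocytes. Values per gene do not separate the splice forms. Esrp1 and Esrp2, epithelial splicing factors that favour the epithelial form, were under 1 TPM in every segment on average and were not tested.

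Fgfr2 measured 41.1, 38.1 and 41.7 TPM in the C libraries, 56.6, 65.9 and 59.7 in the T libraries and 66.2, 68.0 and 57.3 in the L libraries. C lay below both other segments, which overlapped each other. It was 1.39-fold higher in T than in C (log2 change 0.48, SE 0.07, edgeR adjusted p = 7.9e-05) and 1.52-fold higher in L than in C (0.60, SE 0.07, edgeR adjusted p = 9.99e-06). The change from T to L was 0.13 and did not pass the test (edgeR adjusted p = 0.273). The Fgfr2 model in the GENCODE M21 annotation spans 69 neighbouring genes and its estimated counts were fractional in 9 of 9 libraries, so its values may include shared reads and are uncertain.

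Fgfr3 had the largest change of any receptor. Its level was 22.6, 24.6 and 23.6 TPM in the C libraries, 30.7, 34.2 and 30.8 in the T libraries and 9.90, 11.2 and 12.3 in the L libraries, with no overlap between segments. T was 1.30-fold above C (log2 change 0.38, SE 0.07, edgeR adjusted p = 0.000516). L was 2.09-fold below C (-1.06, SE 0.08, edgeR adjusted p = 7.9e-08) and 2.73-fold below T (-1.45, SE 0.08, edgeR adjusted p = 2.27e-08).

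Because Fgfr3 is itself an astrocyte marker, the other astrocyte markers were set beside it. Gfap, an astrocyte intermediate filament, was at 75.2 ± 5.93 TPM in segment C, 106 ± 5.14 in segment T and 15.9 ± 0.861 in segment L, and Aqp4, a water channel of astrocyte end-feet, was at 12.4 ± 1.39, 31.7 ± 6.10 and 5.35 ± 0.244 (SD, n = 3 each). Both had the same order of segments as Fgfr3. Gfap was 1.30-fold higher in T than in C (edgeR adjusted p = 0.0017) and 6.59-fold lower in L than in T (edgeR adjusted p = 2.38e-09), while Aqp4 was 2.40-fold higher (1.46e-06) and 6.12-fold lower (2.27e-08). Of all 6 astrocyte markers other than Fgfr3, T had 4 higher and 2 lower than C, L had 1 higher and 4 lower than C, and 5 were lower in L than in T. The shares of all tested genes were 25.8% higher and 25.2% lower for T against C, 24.4% and 25.2% for L against C, and 8.21% lower for L against T. The summed macrophage markers named above were also lowest in L. The astrocyte markers' summed level was 105 to 114 TPM in C, 167 to 172 in T and 39.8 to 43.2 in L. Aldh1l1 (11.7 ± 0.480, 5.93 ± 0.526 and 6.08 ± 1.08 TPM) and Slc1a3 (1.45 ± 0.179, 0.762 ± 0.219 and 0.244 ± 0.0606 TPM) were instead highest in C (SD, n = 3 each), and Slc1a3 passed the low-value filter only through its C libraries. S100b (6.18 ± 0.547, 19.0 ± 1.28 and 10.2 ± 0.960 TPM) and Slc1a2 (1.90 ± 0.210, 5.90 ± 1.91 and 3.17 ± 1.16 TPM) were highest in T but lowest in C (SD, n = 3 each). The part of astrocyte RNA in the Fgfr3 differences was not tested.

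**Figure D2:**
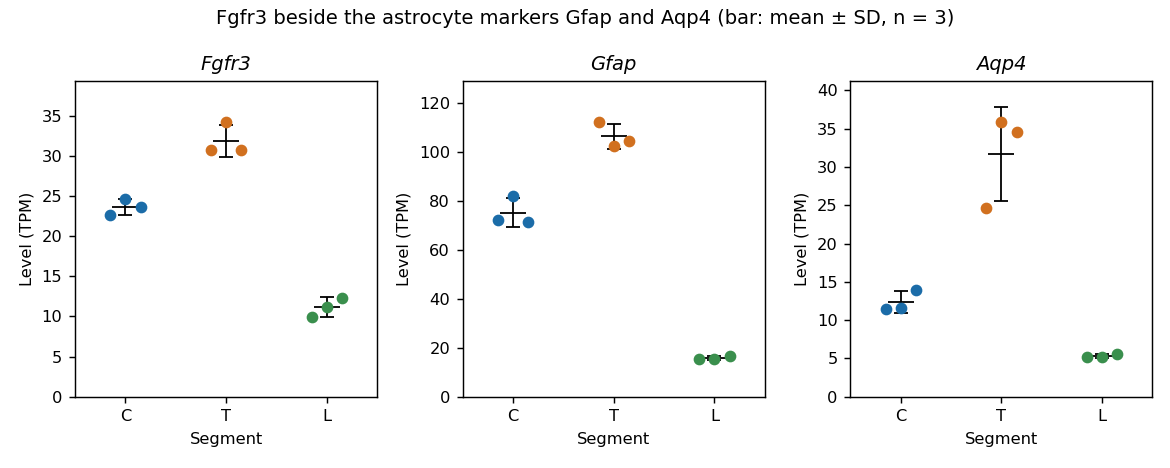
Level in TPM (vertical axes, from 0) of Fgfr3, Gfap and Aqp4 in the 3 libraries of each segment, with mean and SD. All 3 genes are highest in T and lowest in L, where Fgfr3 lies between 9.90 and 12.3 TPM.

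Fgfr1 measured 106, 105 and 101 TPM in the C libraries, 126, 121 and 122 in the T libraries and 102, 107 and 103 in the L libraries. T lay above both other segments, and C and L overlapped. On counts, however, T differed from C by 0.10 (95% interval -0.02 to 0.21) and did not pass the test (edgeR adjusted p = 0.161), whereas limma on log2(TPM + 1) called a difference of 0.24 (limma adjusted p = 0.00204). On that TPM scale the median tested gene was itself 0.13 higher in T than in C and 0.10 higher in L than in C, and after centring on the median Fgfr1 differed by 0.09 (limma adjusted p = 0.251). L differed from C by -0.12 on counts (95% interval -0.24 to 0.00, edgeR adjusted p = 0.0964) and by 0.00 on log2(TPM + 1), where the sign turned. L was 1.16-fold below T (log2 change -0.21, SE 0.06, edgeR adjusted p = 0.0171), which did not pass when only the compared segments were fitted (edgeR adjusted p = 0.0572), without T replicate 3 (0.0543) or without L replicate 1 (0.0863).

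Counting all tested members, 6 of 7 differed between T and C, where 51.1% of all tested genes did, and 5 of 7 differed between L and C, where 49.6% did. Between L and T, 4 of 7 differed against 16.1% of all tested genes, and 6 of 7 differed in the test over all 3 segments against 55.9%. Without T replicate 1 the counts were 5 for T against C, 5 for L against C and 5 for L against T. The shares against C were thus read beside a background in which about as many genes differed as did not. The C libraries enter both comparisons with C, so those comparisons are not independent.

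**Figure D3:**
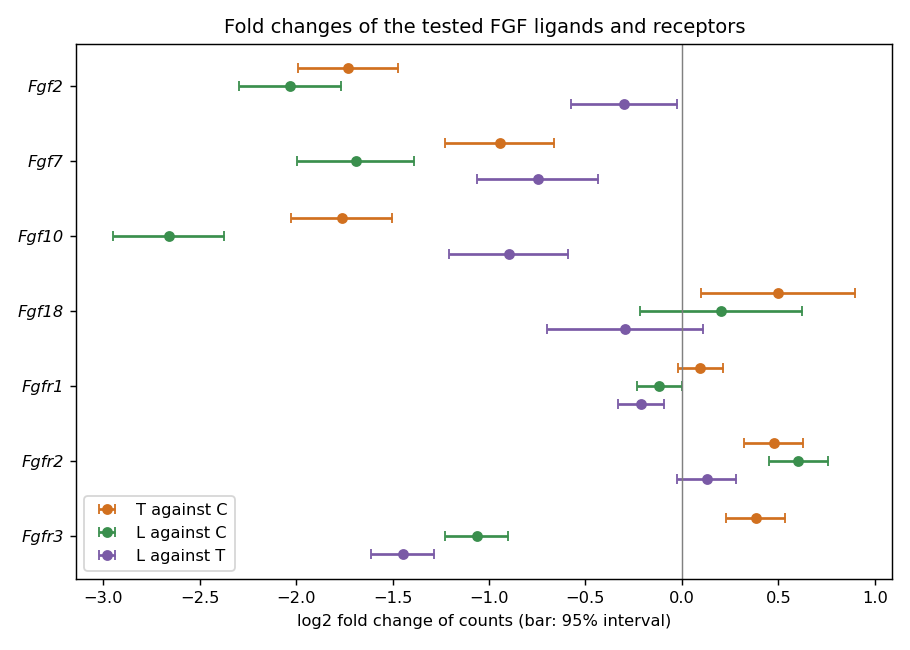
log2 fold change (horizontal axis) with its 95% interval from the edgeR fit on counts, for the 7 tested genes in each pair of segments. Fgf2, Fgf7 and Fgf10 lie left of 0 in T and in L against C, Fgfr2 lies right of 0 in both, and Fgfr3 lies right of 0 in T and left of 0 in L.

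The makeup of ligands and receptors shifted with these differences. The 7 ligands summed to 79.3 ± 7.28 TPM in segment C, 38.2 ± 5.64 in segment T and 26.0 ± 2.94 in segment L, and the 3 receptors to 168 ± 1.73, 216 ± 4.66 and 179 ± 6.49 (SD, n = 3 each). Receptor TPM per ligand TPM ran from 1.89 to 2.25 in C, from 5.08 to 6.61 in T and from 6.50 to 7.63 in L, so that C lay below the other segments, which overlapped. Of ligand TPM, Fgf18 made up 5.95 ± 0.660% in segment C, 19.5 ± 2.91% in segment T and 22.4 ± 1.58% in segment L, and Fgf10 made up 22.5 ± 1.44%, 15.0 ± 0.739% and 11.7 ± 1.89%. Fgf2 made up 38.5 ± 2.30%, 28.7 ± 0.969% and 33.7 ± 3.93% of it in the same order of segments, and Fgf7 made up 30.1 ± 2.19%, 35.3 ± 3.10% and 30.9 ± 2.60%. Of receptor TPM, Fgfr2 made up 24.02 ± 1.22% in segment C, 28.1 ± 1.64% in segment T and 35.7 ± 2.21% in segment L, and Fgfr3 made up 14.1 ± 0.679%, 14.8 ± 0.595% and 6.24 ± 0.797%. Fgfr1 kept the largest receptor share, at 61.9 ± 1.08%, 57.1 ± 2.19% and 58.1 ± 1.43%. These sums and shares are descriptions with no test (SD, n = 3 each). They leave out the ligand Fgf5, described below. Fgf5 was at 27.1 ± 0.854 TPM in segment C, 4.32 ± 1.41 in segment T and 13.4 ± 0.610 in segment L (SD, n = 3 each). In L it lay above each of the 7 ligands, so the sums, shares and ratio hold for those 7 only.

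**Figure D4:**
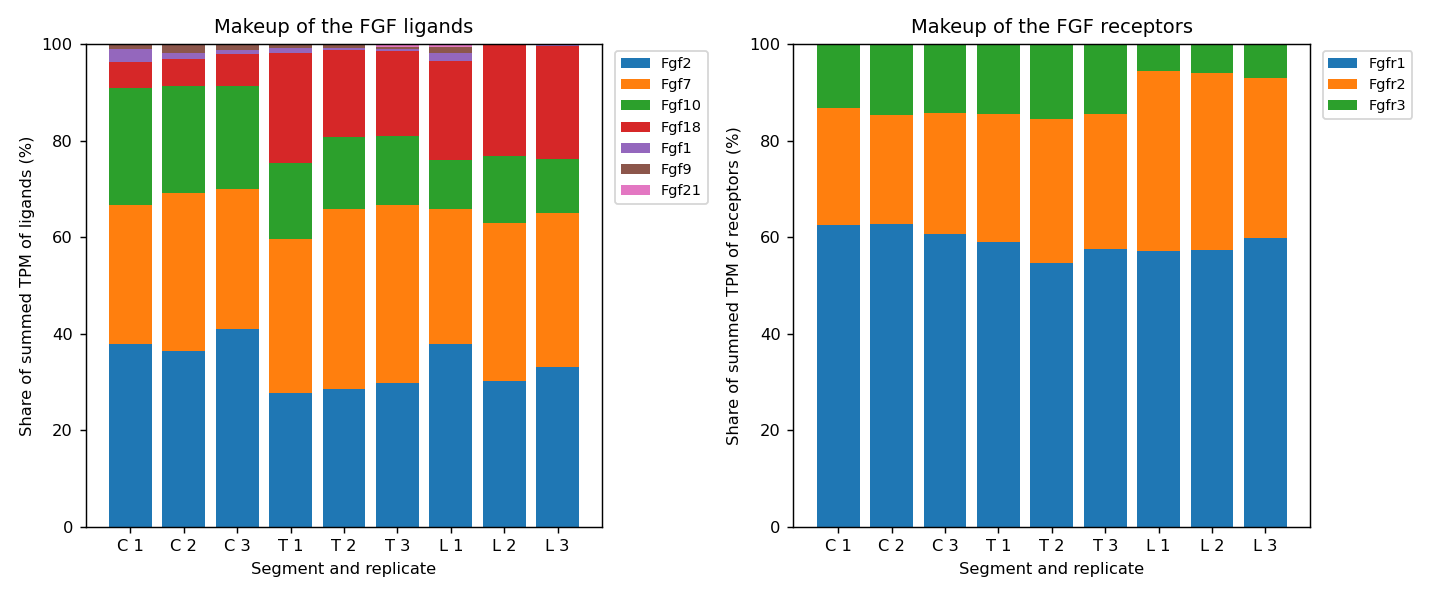
Share in percent (vertical axis) of the summed TPM of the 7 ligands (left) and the 3 receptors (right) held by each gene, 1 bar per library. The Fgf18 share is small in the C libraries and larger in T and L, and the Fgfr3 share is smallest in the L libraries.

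Genes known to be induced by FGF and MAP kinase signalling were mostly lower in T and L than in C. Of 19 tested genes on this list of 20, T had 15 lower and 2 higher than C, against 25.2% and 25.8% of all tested genes, and L had 17 lower and 1 higher than C, against 25.2% and 24.4%. The median log2 change of the list was -0.77 in T and -0.81 in L, while that of all tested genes was 0.02 and 0.01. The same 15 genes were lower in both T and L than in C, and 4 of them, Dusp4, Dusp6, Etv5 and Ccnd1, were lower again in L than in T. Between L and T, 5 genes of the list were lower and 3 higher, against 8.21% and 7.88% of all tested genes. These genes also respond to other growth factors. The list was chosen with earlier results of these data known, so its counts beside the shares of all genes are a description only. The summed Schwann cell, neuronal, endothelial and oligodendrocyte lineage markers named above were highest in C too, the last list sharing genes with others as given above. Of the pia markers, 6 of 7 were lower in T and in L than in C. Of the tested macrophage markers, 7 of 7 were lower in L than in C, with the filter limit given above for Cx3cr1 and Mrc1. The part of any of these in the response gene differences was not tested.

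Dusp6, a phosphatase that inactivates ERK, measured 64.3, 60.3 and 64.0 TPM in the C libraries, 40.2, 42.5 and 38.0 in the T libraries and 25.9, 26.1 and 23.8 in the L libraries. The segments did not overlap and had the same order as those of Fgf10. Dusp6 was 1.70-fold lower in T than in C (edgeR adjusted p = 5.92e-07), 2.67-fold lower in L than in C (2.23e-09) and 1.57-fold lower in L than in T (1.98e-05). Its relative Dusp4 was at 38.6 ± 2.39, 16.7 ± 1.30 and 8.43 ± 1.19 TPM (SD, n = 3 each), a 2.52-fold lower count in T and a 4.93-fold lower count in L than in C (edgeR adjusted p = 5.34e-08 and 7.06e-10). Etv4, an ETS transcription factor, was at 9.07 ± 0.592, 2.91 ± 0.490 and 2.39 ± 0.425 TPM, with 3.39-fold and 4.10-fold lower counts in T and L (edgeR adjusted p = 5.35e-07 and 2.4e-07). Etv5, its close relative, was only 1.21-fold lower in T (edgeR adjusted p = 0.0101) and 1.82-fold lower in L (1.06e-06). Ccnd1, which encodes cyclin D1, was at 608 ± 9.56, 274 ± 6.64 and 160.3 ± 2.66 TPM and was 2.42-fold and 4.08-fold lower (edgeR adjusted p = 3.75e-10 and 1.09e-11). Fosl1, an AP-1 subunit, had the largest fold on the list in T, 5.42-fold lower than in C (edgeR adjusted p = 8.94e-07), and was 5.04-fold lower in L (1.76e-06). Its level was 11.5 ± 0.743 TPM in segment C, 3.19 ± 1.98 in segment T and 2.76 ± 1.05 in segment L (SD, n = 3 each), with T replicate 2 at 5.47. Estimated counts of Fosl1 and Ccnd1 were fractional in every library, so their values are uncertain.

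The feedback inhibitors divided into those lower in T and L and those that were not. Spry1, Spry2 and Spry4, the Sprouty inhibitors in the table, were 1.72-fold, 1.69-fold and 2.19-fold lower in T than in C (edgeR adjusted p = 5.97e-06, 9.83e-05 and 6.96e-06) and 1.49-fold, 1.92-fold and 1.90-fold lower in L (0.000105, 2.03e-05 and 5.01e-05). Il17rd, also called Sef, was 1.52-fold lower in T and 1.51-fold lower in L (edgeR adjusted p = 9.1e-05 and 0.000132). Spred1, of the Sprouty-related family, was instead 1.23-fold higher in T (edgeR adjusted p = 0.0162) and differed by 0.06 in L (0.614). Spred3, named after its values were seen, was 1.92-fold lower in T and 1.63-fold lower in L (edgeR adjusted p = 1.07e-06 and 1.78e-05), at 12.3 ± 0.685, 7.001 ± 0.330 and 8.11 ± 0.173 TPM (SD, n = 3 each). Spred2 differed by -0.06 in T (edgeR adjusted p = 0.488) and was 1.43-fold lower in L (7e-05). Egr1, an immediate early gene, went against the list, at 40.002 ± 1.74 TPM in segment C, 87.0 ± 3.17 in segment T and 103 ± 3.41 in segment L (SD, n = 3 each), with 1.99-fold and 2.38-fold higher counts than in C (edgeR adjusted p = 1.63e-08 and 2.29e-09).

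**Figure D5:**
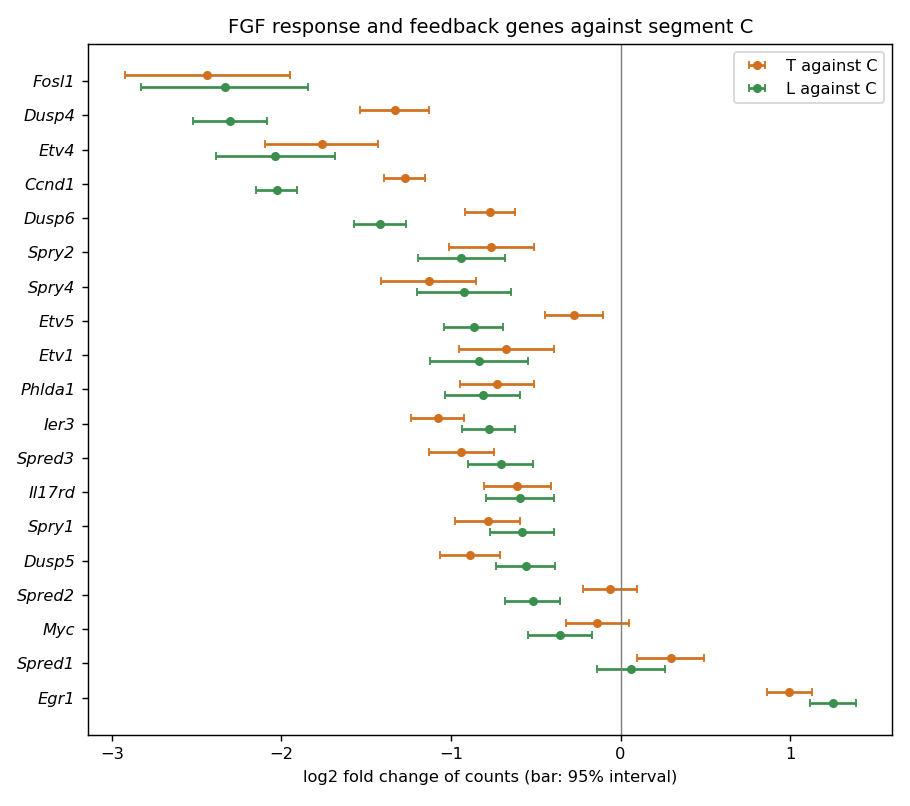
log2 fold change (horizontal axis) with its 95% interval, from the edgeR fit on counts, of the 19 tested FGF response and feedback genes in T and in L against C. Most genes lie left of 0 in both segments, and Egr1 lies right of 0 in both.

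Co-receptors and FGF-binding proteins changed in both directions. Of 17 tested genes on a list of 20, T had 7 higher and 8 lower than C, L had 8 higher and 5 lower than C, and L had 3 higher and 2 lower than T. Over all tested genes the shares were 25.8% higher and 25.2% lower in T against C, 24.4% and 25.2% in L against C, and 7.88% and 8.21% in L against T. The glypicans Gpc4 and Gpc6, heparan sulfate proteoglycans of the cell surface, ran opposite to each other. Gpc4 measured 537 ± 33.2 TPM in segment C, 153 ± 6.22 in segment T and 239.9 ± 5.46 in segment L, and Gpc6 71.1 ± 3.59, 347 ± 23.6 and 157 ± 18.3 (SD, n = 3 each). Gpc4 was 3.83-fold lower in T and 2.41-fold lower in L than in C (edgeR adjusted p = 2.13e-11 and 1.67e-09), whereas Gpc6 was 4.42-fold and 2.03-fold higher (6.6e-11 and 1.29e-07). Flrt1, a membrane protein that binds FGF receptors, was 6.13-fold higher in T and 5.62-fold higher in L (edgeR adjusted p = 1.08e-07 and 2.57e-07), from 0.592 ± 0.150 TPM in C (SD, n = 3). It passed the low-value filter only through its T and L libraries, as did Fgfbp1. Fgfbp1, a secreted FGF carrier, was 10.5-fold and 6.62-fold higher (edgeR adjusted p = 0.000356 and 0.00434), from 0, 4 and 1 counts in the C libraries, so these folds rest on few reads. Between L and T, Gpc3 was 1.35-fold lower (edgeR adjusted p = 0.000106) and the syndecan Sdc1 1.35-fold higher (0.00174). Kl and Klb, the Klotho co-receptors of endocrine FGFs such as FGF21, averaged under 1 TPM in every segment.

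Heparan sulfate enzymes were also mixed, as 18 tested genes of 23 showed 8 higher and 5 lower in T against C, 6 and 6 in L against C, and 1 and 2 in L against T. Beside them stand the same shares of all tested genes, 25.8% and 25.2%, 24.4% and 25.2%, and 7.88% and 8.21%. The sulfotransferase Hs3st3b1 was 2.71-fold lower in T than in C (edgeR adjusted p = 8.14e-06) and 2.59-fold lower in L (1.56e-05). Another, Ndst3, is among those counted as lower but passed the low-value filter only through its C libraries, at 1.007 to 1.52 TPM there, 0.277 to 0.779 in T and 0.521 to 0.686 in L. A further one, Hs3st1, was 2.16-fold higher in T and 1.83-fold higher in L (edgeR adjusted p = 2.24e-05 and 0.000273), and the epimerase Glce was 1.80-fold higher in L (3.55e-06). Hpse, which encodes heparanase, was 2.68-fold higher in T than in C and 3.40-fold lower in L than in T (edgeR adjusted p = 0.000708 and 0.00081). Hs6st2 was 1.37-fold lower and Hs2st1 1.34-fold higher in L than in T (edgeR adjusted p = 0.0106 and 0.000956). The endosulfatases Sulf1 and Sulf2, chosen after their values were seen because they are known to trim the sulfate groups that FGFs bind, were 1.59-fold and 1.34-fold higher in T than in C (edgeR adjusted p = 2.29e-06 and 3.46e-05) and 1.53-fold and 1.28-fold higher in L (6.66e-06 and 0.000176).

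All 22 adaptors and MAP kinase cascade genes were tested, with 7 higher and 5 lower in T against C and 4 higher and 4 lower in L against C, where 51.1% and 49.6% of all tested genes differed in either direction. Between L and T, edgeR called 0 of 22, with 4 at an unadjusted p under 0.05, DESeq2 called 0 and limma on log2(TPM + 1) called 1, beside 16.1% of all tested genes called by edgeR. Gab1, a docking adaptor, was 1.62-fold higher in T and 1.53-fold higher in L than in C (edgeR adjusted p = 5.52e-06 and 2.19e-05). Map2k1, which encodes the kinase MEK1, was 1.56-fold and 1.48-fold lower (edgeR adjusted p = 5.9e-06 and 2.17e-05), and Hras was 1.44-fold and 1.42-fold lower (0.000251 and 0.000433). Mapk3, which encodes ERK1, was 1.5-fold higher in T (edgeR adjusted p = 3.31e-05), and Braf was 1.65-fold higher in L (0.00256). Between L and T the most abundant genes of the list, Mapk3 and Shc1, differed by -0.12 and -0.17 (edgeR adjusted p = 0.355 and 0.0818).

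Of 17 other FGF family genes, 6 were tested and 11 averaged under 1 TPM in every segment, among them Fgf8, Fgf22 and Fgfr4. Against C, T had 1 gene higher and 4 lower and L had 1 higher and 4 lower, and between L and T 2 were higher and 1 lower. By comparison, the higher and lower shares of all tested genes were 25.8% and 25.2% for T against C, 24.4% and 25.2% for L against C, and 7.88% and 8.21% for L against T. Among the genes counted as lower, Fgf13 was 1.95-fold lower in T and 1.56-fold lower in L on counts (edgeR adjusted p = 6.94e-06 and 0.000292). Its TPM, however, overlapped between all segments, at 13.9 ± 0.941 in segment C, 12.7 ± 0.575 in segment T and 12.9 ± 1.06 in segment L (SD, n = 3 each). Fgf5, a secreted ligand known for its part in hair growth, measured 26.2, 27.9 and 27.1 TPM in the C libraries, 2.85, 5.65 and 4.45 in the T libraries and 14.04, 12.8 and 13.4 in the L libraries. It was highest in C like Fgf2, Fgf7 and Fgf10, but its lowest segment was T, with no overlap. It was 7.36-fold lower in T than in C (edgeR adjusted p = 9.21e-11), 2.13-fold lower in L than in C (4.99e-07) and 3.45-fold higher in L than in T (1.38e-07). Fgfrl1, a receptor-like protein without a kinase domain, was at 81.4 ± 3.14 TPM in segment C, 45.6 ± 3.97 in segment T and 30.3 ± 0.310 in segment L (SD, n = 3 each). It was 1.97-fold lower in T and 2.98-fold lower in L than in C, and 1.51-fold lower in L than in T (edgeR adjusted p = 5.52e-07, 7.96e-09 and 0.000352). Fgf12 and Fgf14, intracellular relatives that bind sodium channels, ran opposite to each other. Fgf12 was 7.26-fold lower in T and 4.83-fold lower in L than in C (edgeR adjusted p = 1.85e-07 and 1.35e-06), while Fgf14 was 3.38-fold and 6.31-fold higher (0.000662 and 1.21e-05) and 1.87-fold higher in L than in T (0.0362). Fgf14 passed the low-value filter only through its T and L libraries.

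The genes whose pattern over the 9 libraries was nearest to each member were found among 9970 genes by the root mean square difference in centred log2(TPM + 1). They are a description only. Nearest to Fgf2 were Gpm6b (0.105) and Naalad2 (0.160), to Fgf7 Slco1a5 (0.145) and Vcam1 (0.181), and to Fgf10 Olfm2 (0.203) and Dusp4 (0.209), as root mean square difference. For Fgf18 they were Zfp1 (0.0769) and Rpe (0.0831), and for the receptors Saraf (0.0339) and Kank2 (0.0340) with Fgfr1, Helz (0.0402) and Arid5b (0.0490) with Fgfr2, and Aldoc (0.116) and Kcnf1 (0.142) with Fgfr3. Small differences go with members that varied little, such as Fgfr1. Aldoc, known as an astrocyte enzyme, measured 14.9 ± 0.963 TPM in segment C, 19.3 ± 0.974 in segment T and 6.004 ± 0.930 in segment L (SD, n = 3 each), the order of Fgfr3.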

How the data were processed

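RNA came from TRIzol extraction and a stranded total RNA kit, per the labels' protocols. Per gene and library, the authors deposited an estimated count and a TPM value in 1 table. Tools named in the submitters' processing notes, with no role, are HISAT2 2.2.1, StringTie 2.1.4, Trimmomatic 0.39, FastQC 0.11.9 and DESeq2 1.32.0, with the builds GRCm39 and GRCh38. Annotation and counting strand are not stated there. Samples were grouped and numbered by title, also for L replicate 3, whose description carries the column name of another L library.

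The estimated counts deposited were whole in 92.7% of values and were rounded. The 12553 genes that reached 1 TPM in 3 or more of 9 libraries entered 1 edgeR 4.0.16 quasi-likelihood fit in R 4.3.3, with TMM scaling and segment as the only term. Tests were two-sided, adjusted by Benjamini-Hochberg over all tested genes, with a threshold of 0.05. Fold changes come from counts and levels from the deposited TPM values, which scale with transcript length, so the ratios need not be equal. Alternatives used DESeq2 1.42.0 and limma 3.58.1 on log2(TPM + 1) and log2(TPM + 0.1), other scalings and filters, a replicate block and leaving out each library. The fits were tested on simulated data. Values of overlapping genes and near-identical copies are uncertain. Gene overlaps were read from GENCODE M21 on GRCm38. From each list the text names some of the up to 4 called genes with the largest fold per comparison, plus fixed response genes, or the most abundant where none was called. Other listed genes, such as Egr1, Fgf13, Slc1a2 and the markers under 1 TPM, were named outside this rule after their values were seen. The FGF genes and the lists were chosen with earlier results of these data known.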

Additional observations from a re-analysis of the deposited data

How the results depend on the processing

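Of 21 results for single tested members over the 3 pairs of segments, 16 kept their direction and their side of the threshold under all 20 alternatives. The counts of genes and members called, and of response genes lower, stayed within 1.5 times their values. Fgfr1 in L against C turned from -0.12 to 0.000277 with limma on log2(TPM + 1) and 0.00028 on log2(TPM + 0.1), and the other changed calls stand with Fgf2, Fgf18 and Fgfr1 in the report, save that Fgfr1 in T against C was also called with library totals (edgeR adjusted p = 0.0219) and with limma on log2(TPM + 0.1) (limma adjusted p = 0.00222). The cause was not tested. Leaving out 1 library gave 5451 to 6958 genes for T against C, 5221 to 6890 for L against C, 1412 to 2437 for L against T and 5882 to 7921 over all segments, with 5 to 6, 5, 3 to 5 and 5 to 7 members. Response genes lower numbered 14 to 15 in T against C, 17 in L against C and 5 to 6 in L against T. Same-numbered replicates correlated from -0.148 to 0.291 in their deviations, over 0.1 in 3 of 9 pairs. A library correlated best with its own number in 5 of 18 combinations. With 3 libraries per segment this check cannot exclude that the numbers pair the libraries, which the labels do not state. With the replicate block, 6252, 6084, 1892 and 6858 genes and 5, 5, 4 and 6 members were called. Counts of 0 to 28 per library limit Fgf1, Fgf9 and Fgf21.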
